A study of Rattus norvegicus with 24 samples.

Results

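The comparison set pathologic against physiologic load of the rat heart directly, with no sedentary group between them. It held the 3 left ventricle arrays of Dahl salt-sensitive rats on chow with 6% NaCl at 6 weeks and the 3 left ventricle arrays of exercised Dahl salt-sensitive rats at 6 weeks, 6 of the 22 distinct arrays of the series. Arrays were chosen by the group letter and the week in their titles, while the comparison itself was chosen with earlier results of these data known. The Dahl salt-sensitive rat is a strain in which dietary salt raises blood pressure, and both groups share that genetic background. The rats arrived at 5 weeks of age and both treatments began at 6 weeks of age. The exercised animals ran on a treadmill every day for 6 weeks, the first 3 weeks with a rising load and the rest at 16 m/min, up a 5 degree incline, for 90 minutes a day. The labels do not say from when the weeks of a title are counted, or whether each array came from its own animal, so the p-values here measure the spread between arrays, which may be technical in part. The labels give no blood pressure or heart weight, and they name no diet for the exercised rats.

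A pressure load on the ventricle is known to bring back genes of the fetal heart, among them the natriuretic peptides and skeletal alpha-actin, together with matrix deposition and a lower use of fatty acids. Endurance training is known to enlarge the heart with much less of that fetal programme and with fatty acid oxidation maintained. Natriuretic peptides are hormones that stretched heart muscle cells release into the blood, and they promote loss of salt and water by the kidney.

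Few genes separated the groups. Of 6555 probe sets tested, 6 (0.0915%) were called higher in high salt than in exercise ventricles at an adjusted p under 0.05, and they stood for 4 genes: Nppa, Nppb, Acta1 and Hspb1. No probe set (0%) was called lower in high salt with limma, where an unadjusted p under 0.05 was reached by 302 probe sets lower (4.61%) and 195 higher (2.97%), or 497 in either direction (7.58%). The count called lower rested on single arrays: it was 7 without the array exercise 1, 3 without high salt 1 and 1 without high salt 2. The 3 high salt arrays lay wholly above the 3 exercise arrays for 356 probe sets (5.43%) and wholly below them for 515 (7.86%). The shares given here are the background for each non-overlap and each unadjusted p reported below. The median difference over all tested probe sets was -0.03 on the scale of log2(intensity + 40), and 5% of the differences lay below -0.54 and 5% above 0.48. A typical 95% interval reached 0.54 to either side of its difference, with no adjustment for the number of probe sets. A call took more than that, and the smallest called difference was 0.95. Differences over 1 were seen for 29 probe sets and under -1 for 34, and most of these were not called. Changes well above 0.54 could thus go undetected with 3 arrays a group. All differences below are high salt minus exercise in these units, where the added 40 shrinks the differences of dim genes, with their SE from limma.

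**Figure D1:**
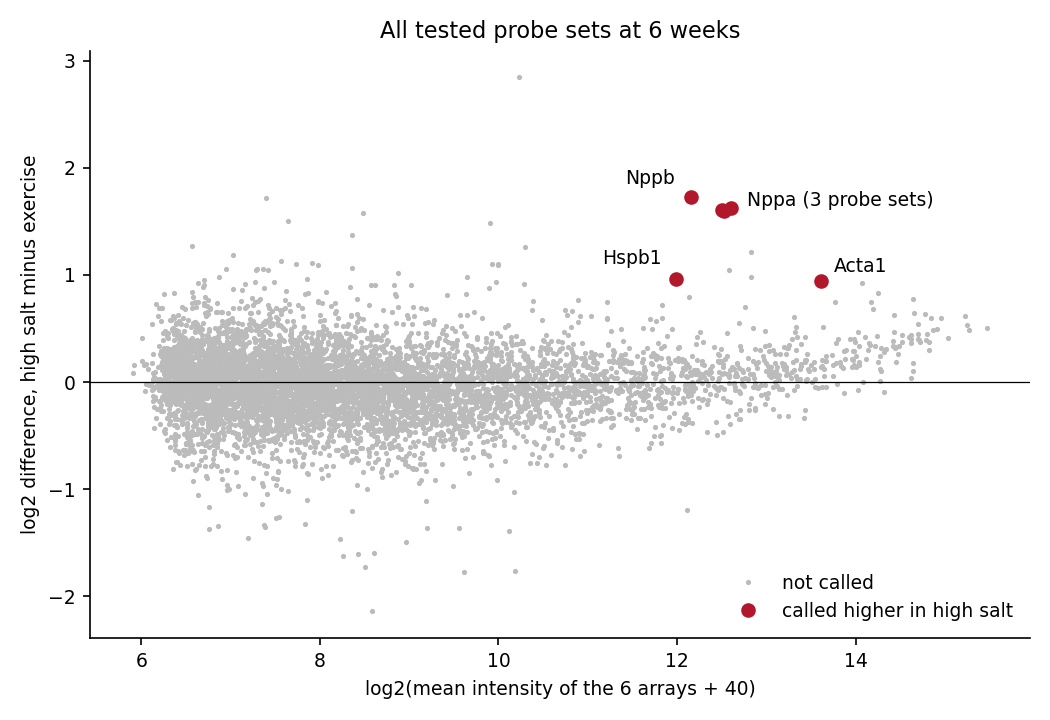
Difference between high salt and exercise ventricles at 6 weeks on the log2 scale (vertical axis) against the mean level over the 6 arrays as log2(mean intensity + 40) (horizontal axis), 1 point per tested probe set. The 6 called probe sets, in red, lie to the bright side with differences between 0.95 and 1.73, and the band of the brightest points bends upward.

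The upstream sequences of the 4 called genes are shown first, because they are the stretches where heart muscle and stress factors are known to act on these genes. Each is the 250 bases before the transcription start in RefSeq's rat genome (GRCr8), read 5′ to 3′ on the strand of the gene: Nppa at chr5:163711934-163712183 (plus strand), Nppb at chr5:163699758-163700007 (plus strand), Acta1 at chr19:68784195-68784444 (minus strand) and Hspb1 at chr12:26432302-26432551 (minus strand). Capitals mark matches on either strand to 6 motifs: TATAAA, the TATA box; GATAA, bound by GATA factors; CATTCC, the M-CAT element bound by TEAD factors; the CArG box, bound by serum response factor; GAANNTTC, a pair of facing units of the heat shock element; and TGANTCA, bound by AP-1 factors.
Nppa: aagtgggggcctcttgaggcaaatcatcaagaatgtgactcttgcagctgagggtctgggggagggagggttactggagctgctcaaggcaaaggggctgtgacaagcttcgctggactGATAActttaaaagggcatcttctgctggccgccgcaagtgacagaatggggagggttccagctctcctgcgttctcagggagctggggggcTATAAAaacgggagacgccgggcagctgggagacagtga
Nppb: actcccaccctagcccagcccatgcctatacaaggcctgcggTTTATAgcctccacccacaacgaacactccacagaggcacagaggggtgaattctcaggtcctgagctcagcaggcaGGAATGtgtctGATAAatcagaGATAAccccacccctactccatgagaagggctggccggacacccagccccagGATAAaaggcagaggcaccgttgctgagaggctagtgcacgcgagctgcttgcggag
Acta1: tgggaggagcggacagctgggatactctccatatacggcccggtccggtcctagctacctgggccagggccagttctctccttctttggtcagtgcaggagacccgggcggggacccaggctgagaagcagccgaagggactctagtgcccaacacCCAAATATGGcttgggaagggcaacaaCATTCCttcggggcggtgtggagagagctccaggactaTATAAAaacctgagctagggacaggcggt
Hspb1: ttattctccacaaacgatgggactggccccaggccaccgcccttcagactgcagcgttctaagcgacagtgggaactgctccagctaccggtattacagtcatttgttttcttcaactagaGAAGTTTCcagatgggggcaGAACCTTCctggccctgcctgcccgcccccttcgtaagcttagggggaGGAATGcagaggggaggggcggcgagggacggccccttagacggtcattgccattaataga

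Nppa and Nppb are neighbours on chromosome 5, and both windows held GATAA, once in Nppa at bases -131 to -127 before the start and at 3 places in Nppb. The Nppa window also held TATAAA at -39 to -34, and the Nppb window held CATTCC at -131 to -126 and TATAAA at -208 to -203, both on the opposite strand. Acta1 had TATAAA at -29 to -24, CATTCC at -67 to -62 and a CArG box at -94 to -85. Hspb1 held CATTCC on the opposite strand at -61 to -56, and was the member of the 4 with GAANNTTC, at -129 to -122 and at -109 to -102. None of the matches overlapped another, and no window held TGANTCA. Among 33469 rat promoters of the same length, 23.5% held GATAA, 12.9% TATAAA, 12.1% CATTCC, 7.23% GAANNTTC, 6.34% TGANTCA and 1.5% a CArG box. A match describes the letters only and no binding was measured.

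Nppb, which encodes the B-type natriuretic peptide, showed the largest called difference. Its intensity was 5792, 7294 and 7911 in the 3 high salt arrays, against 2207, 1762 and 2252 in the 3 exercise arrays. The lowest high salt array was above the highest exercise array by a wide margin, and the exercise arrays stood close together. The means were 6999 ± 1090 in high salt and 2073 ± 271 in exercise (SD, n = 3 each), a ratio of 3.38. The log2 difference was 1.73 ± 0.22 (95% interval 1.27 to 2.19, adjusted p = 0.001013).

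Nppa, which encodes the atrial natriuretic peptide, was measured by 4 probe sets, of which 3 were called. On the probe set E00903cds_s_at the intensities were 9845, 8391 and 8181 in high salt, against 2495, 2642 and 3591 in exercise. The groups did not overlap, and the array labelled high salt 1 was the highest. Means were 8806 ± 906 in high salt and 2909 ± 595 in exercise, a ratio of 3.03, with a log2 difference of 1.60 ± 0.20 (95% interval 1.17 to 2.02, adjusted p = 0.001013). The other called probe sets gave 1.60 ± 0.22 (adjusted p = 0.002655) and 1.62 ± 0.27 (adjusted p = 0.01611). The second of these, E00775cds_s_at, was no longer called without the array high salt 1 (adjusted p = 0.06767) or without exercise 2 (adjusted p = 0.09054). The brightest Nppa probe set read 9981, 9800 and 10216 in high salt, against 4871, 2679 and 5998 in exercise. Its groups did not overlap either, but the spread within exercise was wide and the difference of 1.22 ± 0.24 missed the threshold (adjusted p = 0.06503), which it passed without exercise 3 (adjusted p = 0.01891). Probe sets of 1 gene read the same transcripts and are not independent of each other.

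Acta1 encodes skeletal alpha-actin, the actin form that the fetal heart uses alongside cardiac actin. Its intensities were 16213, 16268 and 16661 in high salt, against 7582, 8410 and 9580 in exercise. The high salt arrays were almost equal and all exercise arrays lay far beneath them. Means were 16381 ± 244 in high salt and 8524 ± 1004 in exercise, a ratio of 1.92, and the log2 difference was 0.95 ± 0.18 (95% interval 0.57 to 1.32, adjusted p = 0.04898). The call was marginal: leaving out any 1 of the 6 arrays left the difference between 0.86 and 1.03 and raised the adjusted p to between 0.07795 and 0.1777.

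Hspb1 encodes a small heat shock protein that binds unfolding proteins and actin filaments. The called probe set read 6279, 4585 and 5108 in high salt, against 2355, 2846 and 2894 in exercise. No exercise array reached the lowest high salt array. Means were 5324 ± 868 in high salt and 2698 ± 299 in exercise, a ratio of 1.97, with a log2 difference of 0.96 ± 0.18 (95% interval 0.59 to 1.33, adjusted p = 0.04473). The call held without high salt 2 and was lost without any 1 of the other 5 arrays (adjusted p 0.09029 to 0.1262). The brightest Hspb1 probe set gave 9888, 9160 and 9311 in high salt, against 4413, 7062 and 3508 in exercise. Its high salt arrays again stood above all exercise arrays, with a difference of 0.98 ± 0.20 (adjusted p = 0.07826), which passed the threshold without exercise 2 (adjusted p = 0.009747). Another Hspb1 probe set differed by 1.04 ± 0.22 (adjusted p = 0.09851), and the dimmest by -0.14 ± 0.32 (adjusted p = 0.981).

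**Figure D2:**
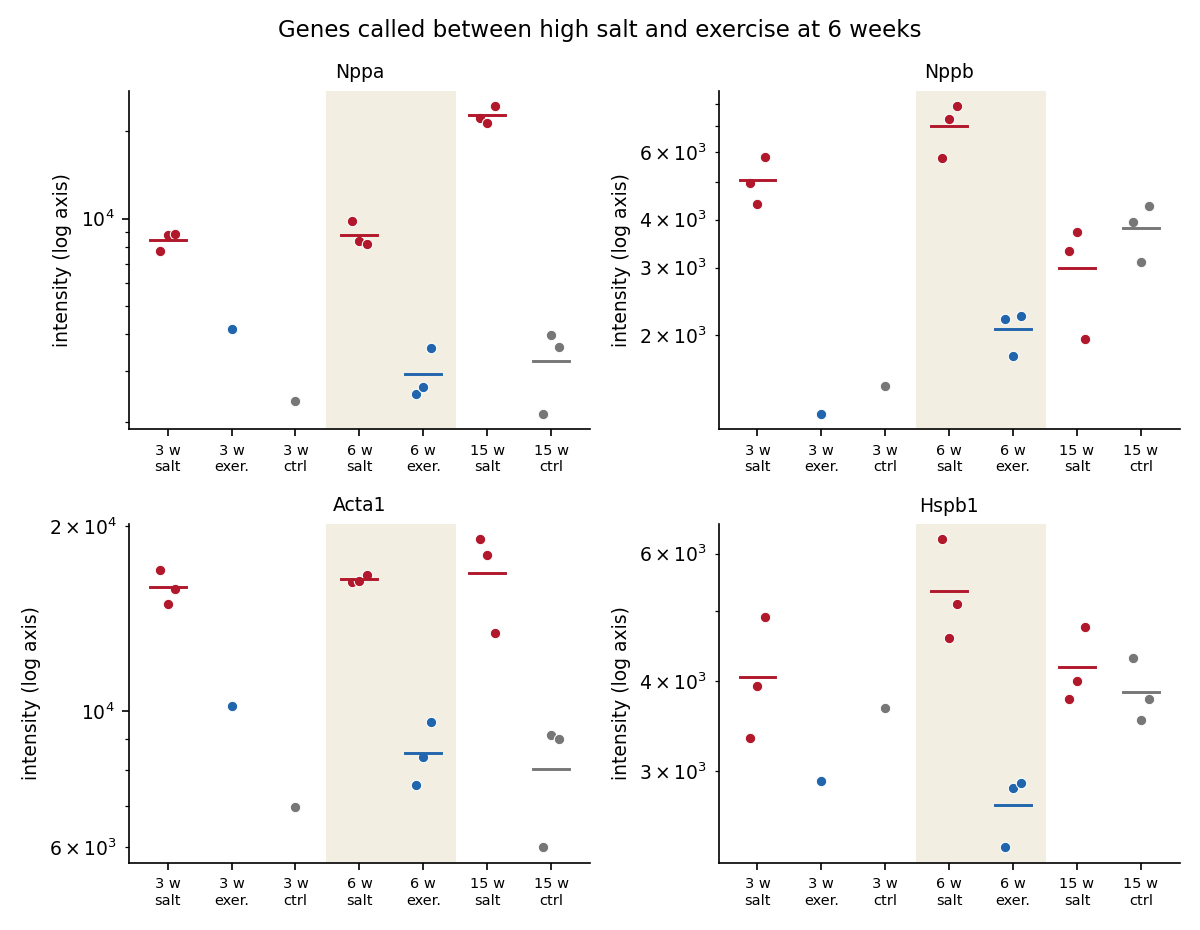
Deposited intensity (vertical axis, log scale) of Nppa (probe set E00903cds_s_at), Nppb, Acta1 and Hspb1 (called probe set) in each array, as points, with the group mean as a bar where a group had 3 arrays. The shaded columns are high salt and exercise at 6 weeks, where no points overlap; the other columns show high salt, exercise and control at 3 weeks and high salt and control at 15 weeks.

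The remaining arrays of the series place these levels. The sedentary arrays of 6 weeks were set aside on grounds of RNA quality. For GAPDH, controls 2 and 3 stood apart, at 2.481 and 3.988. Control 1, at 1.584, was level with the used control 3 of 15 weeks, at 1.58. The beta-actin ratio of control 1, 1.979, was above the highest of a used array, 1.683. With the sedentary arrays of 6 weeks set aside, 5 arrays of rats not fed salt at other weeks remained. They were 1 exercise and 1 control at 3 weeks and 3 controls at 15 weeks. For all 6 called probe sets the lowest high salt array of 6 weeks was above every one of these 5. For Nppa, Nppb and Acta1 the exercise arrays of 6 weeks lay inside the range of the 5 or overlapped it. For Hspb1 they lay below it, with 2894 as the highest exercise array of 6 weeks against 2909.6 as the lowest of the 5. These placements describe 5 arrays of other weeks and were not tested.

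Within high salt, the 4 genes had different courses over the weeks, given here as levels without a test. Nppa averaged 8469 ± 640 at 3 weeks, 8806 ± 906 at 6 weeks and 22647 ± 1578 at 15 weeks in high salt, with 3230 ± 971 in controls at 15 weeks (SD, n = 3 each). Nppb averaged 5074 ± 727 at 3 weeks, 6999 ± 1090 at 6 weeks and 2999 ± 923 at 15 weeks in high salt, with 3799 ± 640 in the 15-week controls. The peptides had their highest high salt means at different weeks, Nppa at 15 and Nppb at 6. Acta1 averaged 15886 ± 1032 at 3 weeks and 16784 ± 2972 at 15 weeks in high salt, close to its level at 6 weeks, with 8054 ± 1783 in the 15-week controls. Hspb1 averaged 4057 ± 792 at 3 weeks, 5324 ± 868 at 6 weeks and 4177 ± 515 at 15 weeks in high salt, and 3868 ± 392 in the 15-week controls. At 3 weeks high salt was above the single usable exercise array by 1.98 for Nppb, 1.02 for Nppa (E00903cds_s_at), 0.64 for Acta1 and 0.46 for Hspb1. With 1 exercise array at that week no test was made.

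Most genes of the fetal and stress programme had positive differences. Of the 14 tested genes on that list, each by its brightest probe set, 2 were called higher (Nppb and Acta1), 12 had a positive difference and the median was 0.37. Over all 3829 genes tested the median was -0.04, with 1683 positive (44%) and 2146 negative (56%). Ankrd1, a stretch-responsive protein of the sarcomere and nucleus, read 26319, 21622 and 19675 in high salt, against 11053, 11575 and 12775 in exercise. Its groups were far apart, yet the difference of 0.92 ± 0.18 just missed the threshold (adjusted p = 0.06503).

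Immediate early and transcription factor genes had 20 positive and 12 negative differences of 32 tested, a median of 0.10 and 0 called. Egr1, an immediate early transcription factor, read 3038, 973 and 1300 in high salt, against 1043, 534 and 451 in exercise. The array high salt 1 was well above the rest, and exercise 1 overlapped the lower high salt arrays, with a difference of 1.26 ± 0.33 (adjusted p = 0.232). The other 3 Egr1 probe sets had the same sign, at 1.58, 0.85 and 0.12, with 0 called. Without exercise 1 the probe set M18416_at was called (2.07, adjusted p = 0.01136). Cell cycle genes had 10 positive and 11 negative differences of 21 tested, with a median of -0.01 and 0 called, and they had different signs. Cdkn1a, an inhibitor of cell division, read 384, 537 and 868 in high salt, against 236, 208 and 349 in exercise, a difference of 1.02 ± 0.33 (adjusted p = 0.415). Pcna, the sliding clamp of DNA replication, differed by -0.78 ± 0.32 (adjusted p = 0.561) and Wee1, a kinase that holds back mitosis, by -0.63 ± 0.28 (adjusted p = 0.619).

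**Figure D3:**
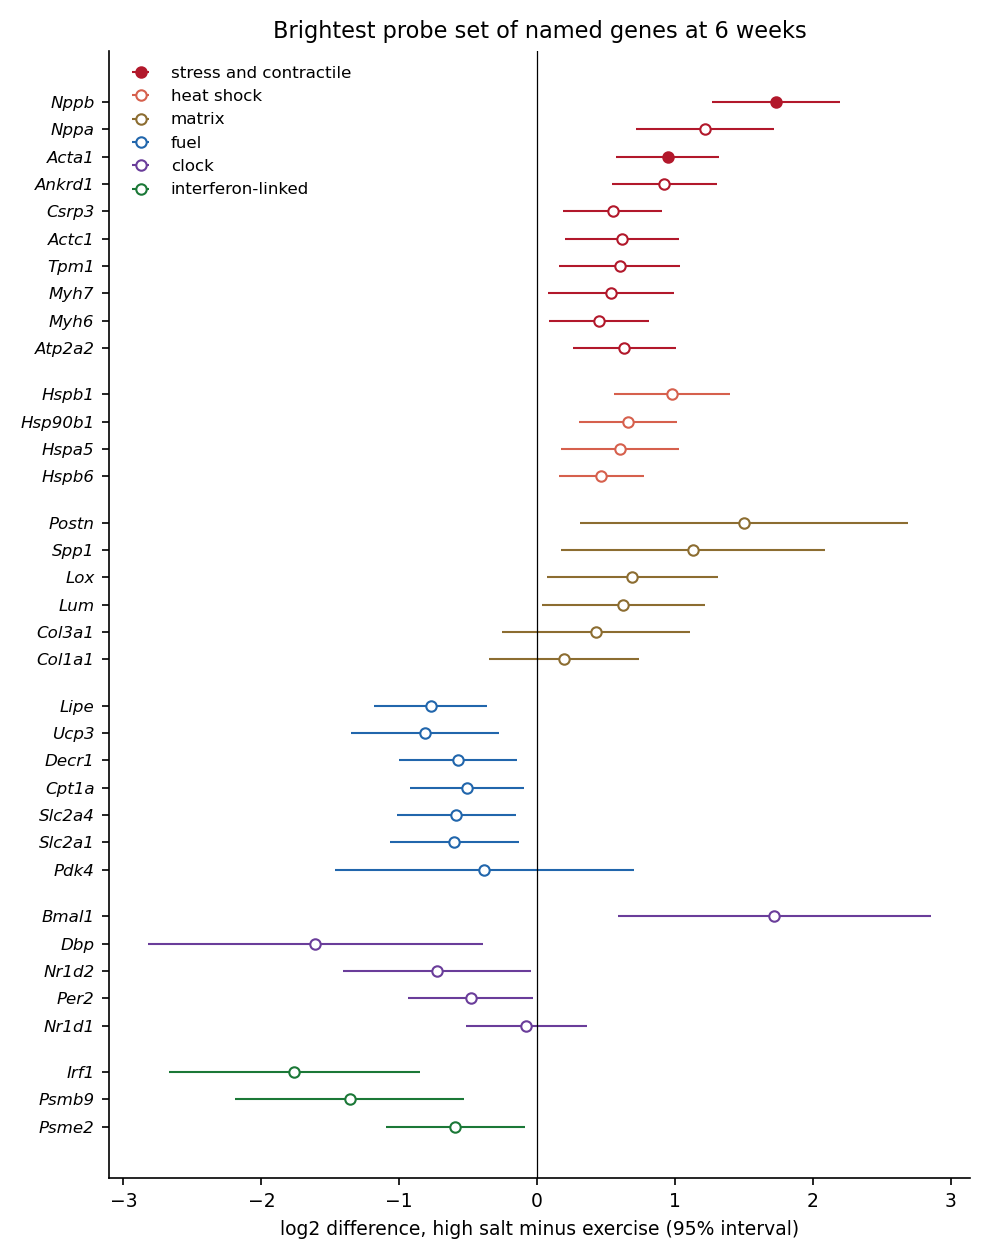
Log2 difference between high salt and exercise ventricles at 6 weeks for named genes by functional group, each by its brightest tested probe set, with bars for the 95% interval. Filled points were called (Nppb and Acta1); Nppa and Hspb1 appear open here because their called probe sets are not their brightest.

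Contractile proteins showed small positive differences that depended on the scaling. Of 17 sarcomere and cytoskeleton genes tested, 0 were called, 7 reached an unadjusted p under 0.05, all higher, and 16 had a positive difference, with a median of 0.35. After quantile normalization, which gives every array the same distribution of values, 11 were positive and 6 negative and the median was 0.07. Myh6, the fast alpha-myosin heavy chain of the adult rat ventricle, read 29157, 33591 and 35682 in high salt, against 24637, 19701 and 28298 in exercise. Its difference was 0.45 ± 0.17 (adjusted p = 0.52) and turned to -0.03 after quantile normalization. Myh7, the slow beta-myosin heavy chain of the fetal heart, read 40945, 51800 and 44089 in high salt, against 25086, 29513 and 41432 in exercise. The groups overlapped through exercise 3, and the difference was 0.54 ± 0.22 (adjusted p = 0.548). A second Myh7 probe set gave 0.83 ± 0.26 (adjusted p = 0.378). Csrp3, a mechanosensor of the Z disc, differed by 0.55 ± 0.17 (adjusted p = 0.394), Actc1, cardiac actin, by 0.61 ± 0.20 (adjusted p = 0.415) and Tpm1, tropomyosin, by 0.60 ± 0.21 (adjusted p = 0.488). Of the 4 other Tpm1 probe sets tested, 1 had the opposite sign, and X02412_at gave 0.68 ± 0.17 (adjusted p = 0.194). After quantile normalization the brightest probe sets gave 0.04 for Myh7, 0.05 for Actc1, 0.15 for Tpm1 and 0.47 for Csrp3.

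Differences depended on the level of a probe set. Among the tenth of probe sets with the highest mean level the median difference was 0.07 with 60.8% positive, and in the tenth with the eighth rank of level it was -0.10 with 33.7% positive. After quantile normalization these medians were -0.02 and -0.01. Ventricular myocyte markers moved in the same way: 11 of 13 were positive with a median of 0.45 as deposited, and 6 of 13 with a median of -0.03 after quantile normalization, and their summed intensity ranged over 293389 to 380836 in high salt against 221729 to 284362 in exercise. In whole tissue, fewer cells of a type and less RNA per cell cannot be told apart. The part of this shift in the differences of bright genes was not tested beyond that normalization, under which Nppb and all 3 Nppa probe sets were still called, Acta1 differed by 0.82 (adjusted p = 0.07185) and the called Hspb1 probe set by 0.93 (adjusted p = 0.05091).

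Calcium handling showed no called gene among 21 tested, with 8 differences positive, 13 negative and a median of -0.11. Atp2a2, the pump that returns calcium to the sarcoplasmic reticulum, read 28061, 30996 and 44070 in high salt, against 19193, 22722 and 23522 in exercise by its brightest probe set. Those groups did not overlap (0.63 ± 0.18, adjusted p = 0.277), but its other 3 probe sets had the opposite sign, at -0.03, -0.32 and -0.39, and the brightest gave 0.21 after quantile normalization. No direction can be given for Atp2a2 from these probe sets. Gja1, the main gap junction protein that couples ventricular myocytes, read 427, 2099 and 1794 in high salt, against 442, 406 and 353 in exercise. The array high salt 1 was at the exercise level and the others far above it, so the difference of 1.48 ± 0.46 was not called (adjusted p = 0.394), and without high salt 1 it was 2.17 (adjusted p = 0.02043).

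No chaperone other than Hspb1 was called. Of the 23 other heat shock and folding genes tested by their brightest probe set, 16 were positive and 7 negative. The median was 0.11 (0.15 after quantile normalization). At an unadjusted p under 0.05, 4 were higher and 0 lower, against 2.97% higher and 4.61% lower of all probe sets. Hsp90b1, a chaperone of the endoplasmic reticulum, read 1690, 2474 and 2412 in high salt, against 1411, 1326 and 1320 in exercise, a difference of 0.66 ± 0.17 (adjusted p = 0.209). Hspa5, the main chaperone of the same compartment, differed by 0.60 ± 0.20 (adjusted p = 0.464). Hspb6, a small heat shock protein abundant in muscle, differed by 0.46 ± 0.15 (adjusted p = 0.406), and by 0.19 after quantile normalization. For all 3 the high salt arrays lay wholly above the exercise arrays, as for 5.43% of all probe sets. Hspa9, a mitochondrial chaperone, had the opposite sign at -0.40 ± 0.27 (adjusted p = 0.815).

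Extracellular matrix genes had no called member among 29 tested, while 24 differences were positive and 5 negative, with a median of 0.28 (0.30 after quantile normalization). Values over 1 belonged to Postn and Spp1, and both leaned on high salt 1. Postn, a matrix protein of activated fibroblasts, read 688, 98.7 and 58.8 in high salt, against 53.2, 33.3 and 24.6 in exercise. High salt 1 was far above every other array, although the groups did not overlap, and the difference was 1.50 ± 0.57 (adjusted p = 0.52). Spp1, osteopontin, read 501, 86.0 and 121 in high salt, against 49.1, 57.0 and 80.9 in exercise, a difference of 1.13 ± 0.46 (adjusted p = 0.548). Lox, which cross-links collagen, differed by 0.69 ± 0.30 (adjusted p = 0.588), and Lum, a small proteoglycan on collagen fibrils, by 0.62 ± 0.28 (adjusted p = 0.619). The main fibrillar collagens differed less, with 0.42 ± 0.32 for Col3a1 (adjusted p = 0.856) and 0.20 ± 0.26 for Col1a1 (adjusted p = 0.95), whose sign turned without high salt 1 (-0.01). Fibroblast markers, which share genes with this list, were positive in 8 of 10 with a median of 0.28, and their summed intensity ranged over 27426 to 36248 in high salt against 24061 to 28383 in exercise. Their part in the matrix values was not tested.

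Among the genes that turn matrix over, the named members had different signs. Mmp14, a membrane-bound collagenase, read 533, 567 and 553 in high salt, against 228, 313 and 293 in exercise. Timp3, a matrix-bound inhibitor of such proteases, read 202, 401 and 443 in high salt, against 621, 657 and 757 in exercise. Neither pair of groups overlapped, and neither was called, with 0.90 ± 0.26 for Mmp14 (adjusted p = 0.28) and -0.94 ± 0.24 for Timp3 (adjusted p = 0.197). Timp1, another inhibitor of the family, had the sign of Mmp14 at 0.55 ± 0.24 (adjusted p = 0.619). The whole list of matrix turnover and TGF-beta genes had 11 positive and 17 negative of 28 tested, with a median of -0.05.

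No fuel gene was called. Of 35 genes of fatty acid uptake and oxidation, 12 differences were positive and 23 negative (65.7%, against 56% of all genes), the median was -0.14 and 6 reached an unadjusted p under 0.05, all lower. Lipe, hormone-sensitive lipase, which releases fatty acids from stored fat, read 1539, 971 and 1211 in high salt, against 1854, 2127 and 2378 in exercise. All high salt arrays were beneath all exercise arrays, and the difference was -0.77 ± 0.20 (adjusted p = 0.202). Ucp3, a mitochondrial carrier induced when fatty acids are burned, read 261, 354 and 413 in high salt, against 499, 680 and 710 in exercise, with a difference of -0.81 ± 0.25 (adjusted p = 0.394). Decr1 and Cpt1a, enzymes of fatty acid oxidation and of fatty acid entry into mitochondria, differed by -0.57 ± 0.20 (adjusted p = 0.488) and -0.51 ± 0.20 (adjusted p = 0.528). Cpt1b, another gene of that entry step, differed by 0.05 (-0.09 after quantile normalization). The largest of the 12 positive differences were 0.46 for Hadhb, 0.33 for Fabp3 and 0.32 for Echs1. After quantile normalization these were 0.39, -0.03 and 0.29. Pdk4, which blocks pyruvate oxidation, had a wide spread in high salt, with 564, 1260 and 2173, against 1281, 1714 and 1622 in exercise. Its difference of -0.38 ± 0.52 (adjusted p = 0.95) turned positive without high salt 1 (0.11). Markers of adipocytes, cells in which Lipe is also known to act, summed to 14161 to 16487 in high salt against 13856 to 15799 in exercise, and their part was not tested.

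Of 36 glucose genes, 25 had negative differences (69.4%, against 56% of all genes), with a median of -0.07 and 0 called. At an unadjusted p under 0.05, 2 were higher and 3 lower. The largest of the 11 positive differences was that of Slc16a1, at 0.59 under both scalings. The glucose transporter Slc2a4, which insulin and contraction move to the cell surface, read 1382, 2208 and 1699 in high salt, against 2564, 2995 and 2348 in exercise (-0.59 ± 0.21, adjusted p = 0.488). Slc2a1, the basal glucose transporter, read 579, 474 and 418 in high salt, against 698, 887 and 703 in exercise (-0.60 ± 0.22, adjusted p = 0.513). For each transporter the groups did not overlap, but a second, dimmer probe set had the opposite sign. Oxidative phosphorylation and citric acid cycle genes had 27 positive and 14 negative of 41 with a median of 0.11 as deposited, and 16 positive and 25 negative with a median of -0.08 after quantile normalization. The list therefore had no direction that both scalings shared. Its largest difference was that of Atp5pf, a subunit of ATP synthase, at 0.70 ± 0.18 (adjusted p = 0.232).

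**Figure D4:**
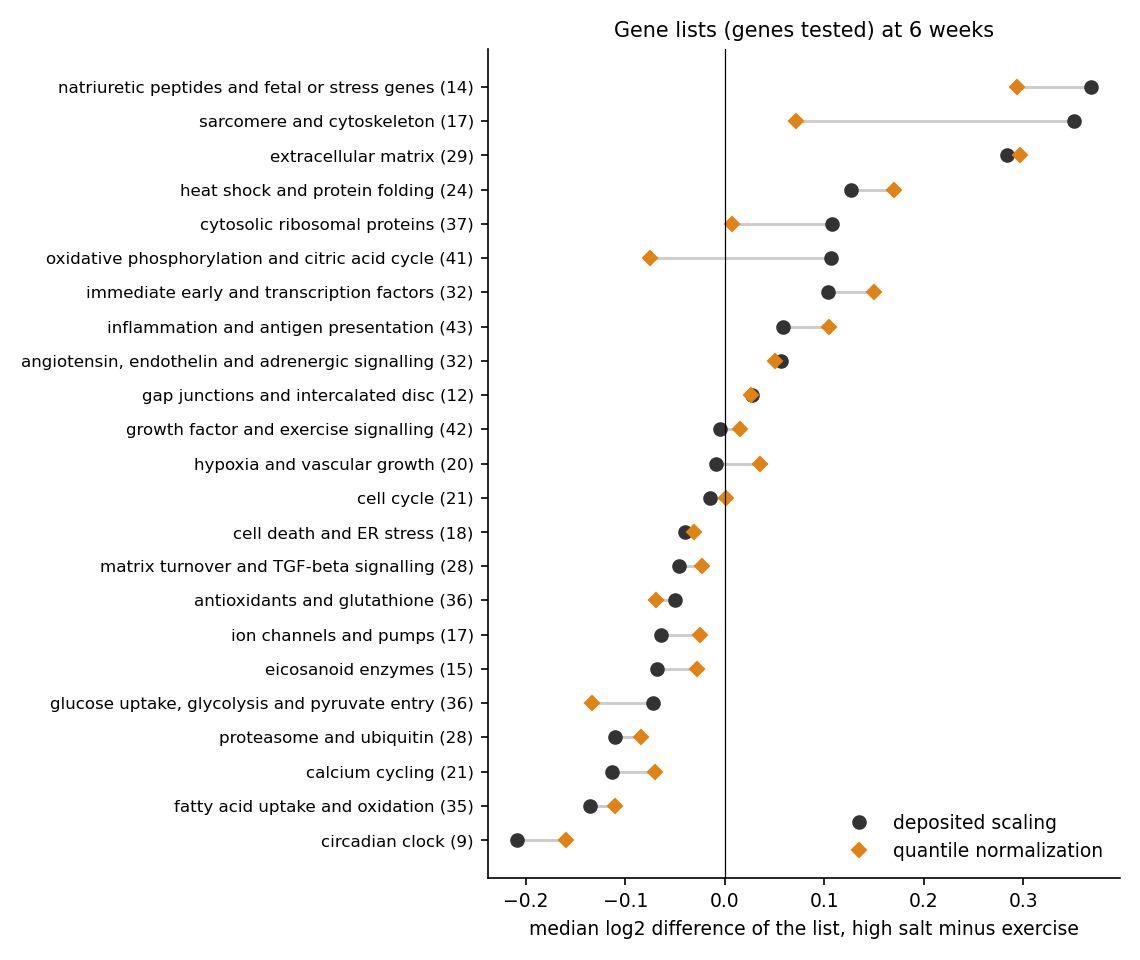
Median log2 difference between high salt and exercise ventricles at 6 weeks for 23 gene lists (number of genes tested in brackets), with deposited scaling as circles and after quantile normalization as diamonds. Stress, sarcomere and matrix lists have the largest positive medians as deposited; the sarcomere median falls near 0 and the oxidative phosphorylation median changes sign after quantile normalization.

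On the lower side, the 5 genes with the smallest p-values were Pim3, Irgm2, Kbtbd3, Phf7 and Epb41, none of them called. Pim3, a serine kinase linked to cell survival, read 739, 537 and 707 in high salt, against 1083, 1554 and 1226 in exercise. The groups were clearly apart and the difference was -0.92 ± 0.19 (adjusted p = 0.0985). Kbtbd3 differed by -1.37 ± 0.31 (adjusted p = 0.135), with at most 19.7 in high salt against at least 59.5 in exercise, both dim. Epb41, a protein of the membrane skeleton, differed by -1.26 ± 0.30 (adjusted p = 0.171), and Phf7 by -1.33 ± 0.31 (adjusted p = 0.171). Phf7 passed the threshold without high salt 2 (-1.73, adjusted p = 0.01745).

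Irgm2 is described here with 4 other genes that interferon is known to induce, Irf1, Psmb9, Psme2 and Tap1. They were put together after their values were seen, so they form no tested list. Irgm2, an interferon-induced GTPase, read 507, 276 and 150 in high salt, against 545, 1143 and 1852 in exercise (-1.77 ± 0.38, adjusted p = 0.105). Irf1, a transcription factor of the interferon response, read 594, 428 and 263 in high salt, against 516, 2235 and 2721 in exercise (-1.76 ± 0.43, adjusted p = 0.194). Psmb9, a subunit of the immunoproteasome, read 458, 329 and 238 in high salt, against 338, 1472 and 1465 in exercise (-1.36 ± 0.39, adjusted p = 0.282). In Irf1 and Psmb9, exercise 2 and 3 were high together and exercise 1 was at the level of the high salt arrays. Psme2, part of an activator of that proteasome, read 508, 399 and 413 in high salt, against 447, 831 and 841 in exercise, again with exercise 1 apart from the other exercise arrays (-0.59 ± 0.24, adjusted p = 0.548). Tap1, a peptide transporter for antigen presentation that was picked after its values were seen, read 282, 142 and 141 in high salt, against 178, 1005 and 1004 in exercise on its probe set X57523_g_at (-1.50 ± 0.49, adjusted p = 0.424). The brighter Tap1 probe set, X57523_at, differed by -0.54 ± 0.26 (adjusted p = 0.66). Without exercise 1 the differences were -2.48 for Irf1 and -2.02 for Psmb9 (adjusted p = 0.001966 each), -2.22 for Irgm2 (adjusted p = 0.01035) and -2.25 for Tap1 (adjusted p = 0.01136), and without high salt 1 that of Irgm2 was -2.16 (adjusted p = 0.02762). Over the whole list of inflammation and antigen presentation, 27 of 43 differences were positive and 16 negative, with a median of 0.06 and 0 called. Other genes of that list known to respond to interferon had differences of varied size and sign. By brightest probe set these were -0.97 for Psmb8, -0.72 for Il15, -0.60 for RT1-Ba and 0.46 for RT1-Bb. That of the chemokine Cxcl10 was -0.34 ± 0.30 (adjusted p = 0.885). B2m, the light chain of class I molecules, differed by -0.15 ± 0.17 (adjusted p = 0.939). Leukocyte markers, 11 of 14 tested, summed to 9666 to 14658 in high salt against 9155 to 15550 in exercise, and their part was not tested.

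Reg3b, a secreted lectin linked to inflammation, had the largest positive difference of all tested probe sets and no call. It read 6279, 475 and 36.8 in high salt, against 87.2, 31.5 and 34.2 in exercise. High salt 1 and 2 were above all exercise arrays and high salt 3 was among them, and the difference was 2.84 ± 0.99 (adjusted p = 0.488). Without high salt 3 it was 4.36 (adjusted p = 0.04922).

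No clock gene was called, and in Bmal1 and Dbp the high salt arrays differed among themselves. Bmal1, an activator of the circadian clock, read 26.3, 231 and 443 in high salt, against 17.9, 31.5 and 18.8 in exercise. Dbp, a clock output gene that the activator drives, read 545, 39.5 and 25.5 in high salt, against 384, 360 and 469 in exercise. High salt 1 was at the exercise level for both genes, while high salt 2 and 3 were high for Bmal1 and low for Dbp. The differences were 1.72 ± 0.54 for Bmal1 (adjusted p = 0.394) and -1.61 ± 0.58 for Dbp (adjusted p = 0.493). Without high salt 1 they were 2.53 (adjusted p = 0.02043) and -2.61 (adjusted p = 0.006387). Nr1d2, a repressor in the clock, read 449, 168 and 105 in high salt, against 287, 386 and 437 in exercise (-0.73 ± 0.33, adjusted p = 0.619). Per2, another repressor, read 331, 249 and 259 in high salt, against 400, 431 and 380 in exercise, with no overlap and a difference of -0.48 ± 0.22 (adjusted p = 0.618). Nr1d1, a close relative of Nr1d2, had overlapping values with a difference of -0.08 ± 0.21 (adjusted p = 0.984). The groups overlapped too for Bhlhe40 (0.44), Bhlhe41 (-0.21), Tef (-0.15) and Hlf (-0.25), the remaining clock-linked genes tested. The time of day at which tissue was taken is not given in the labels, and its part in these values was not tested. Of the 9 clock genes tested, 2 were positive and 7 negative with a median of -0.21.

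**Figure D5:**
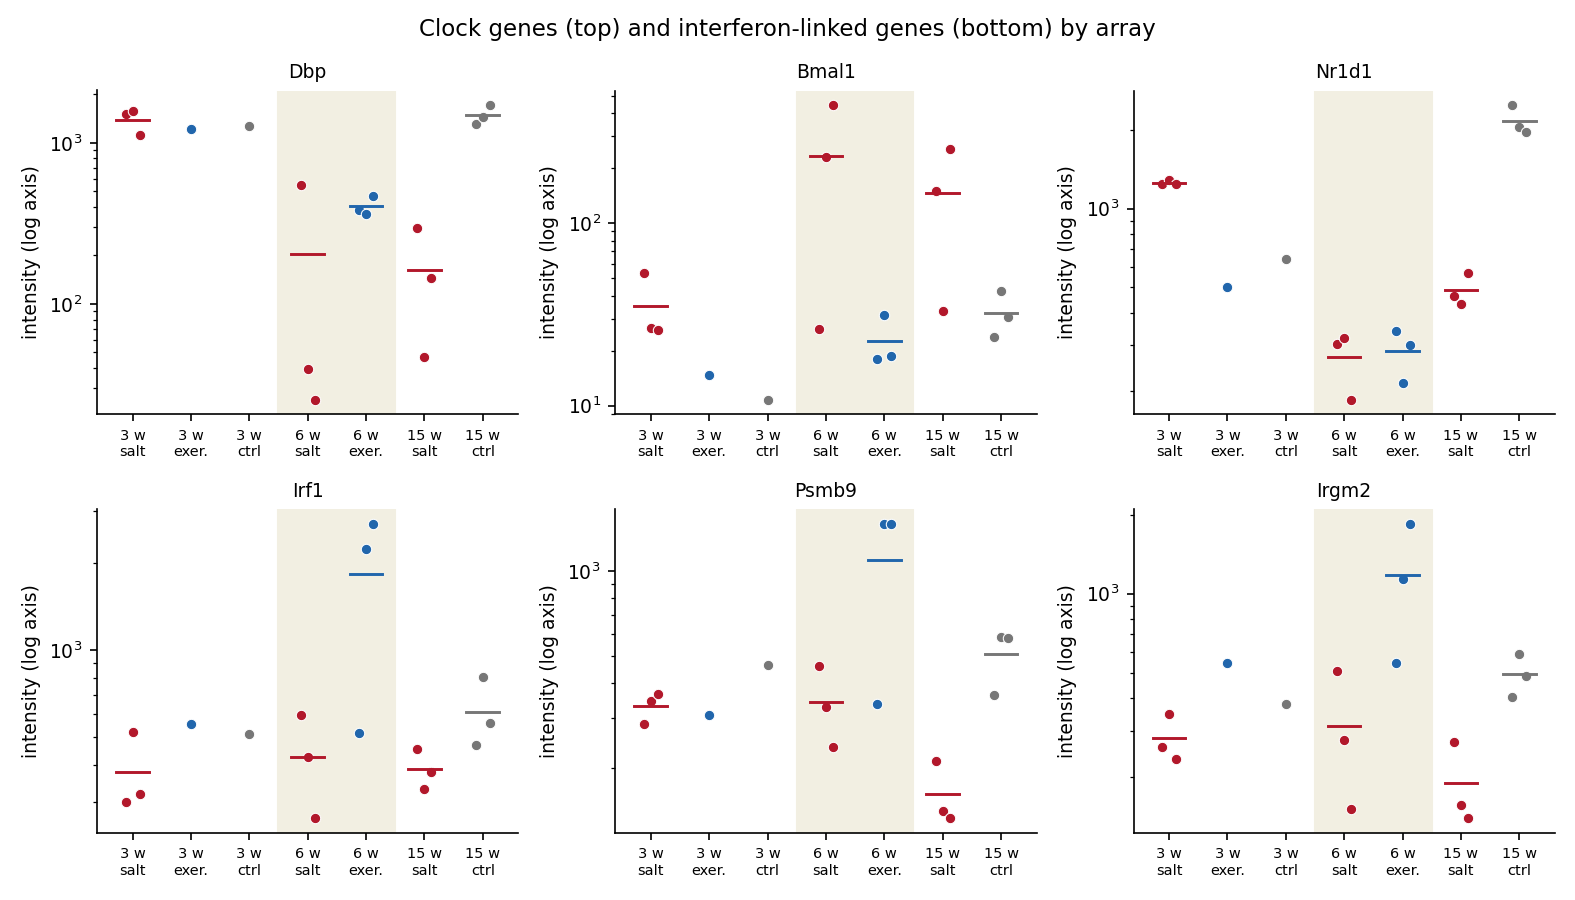
Deposited intensity (vertical axis, log scale) in each array, as points with the group mean as a bar, of the clock genes Dbp, Bmal1 and Nr1d1 in the top row and of the interferon-linked genes Irf1, Psmb9 and Irgm2 in the bottom row. In the shaded columns of 6 weeks, 1 high salt array sits with the exercise arrays for Dbp and Bmal1, and 1 exercise array sits with the high salt arrays for Irf1 and Psmb9.

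Proteasome and ubiquitin genes had negative differences in 23 of 28 tested (82.1%, against 56% of all genes), with a median of -0.11 (-0.08 after quantile normalization) and 0 called. Psmd1, a subunit of the proteasome's regulatory particle, read 2291, 2497 and 2722 in high salt, against 3101, 3499 and 3651 in exercise (-0.44 ± 0.17, adjusted p = 0.536). Psmc2, an ATPase of the same particle, differed by -0.45 ± 0.17 (adjusted p = 0.52). Cytosolic ribosomal proteins had a median of 0.11 over 37 genes as deposited and 0.01 after quantile normalization. Id2, an inhibitor of basic helix-loop-helix factors, read 417, 321 and 249 in high salt, against 521, 540 and 678 in exercise, with no overlap and a difference of -0.76 ± 0.21 (adjusted p = 0.251). Igf1, a growth factor tied to physiologic growth of the heart, read 481, 236 and 231 in high salt, against 385, 582 and 492 in exercise. High salt 1 overlapped the exercise arrays, and the difference was -0.62 ± 0.26 (adjusted p = 0.571).

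Most RNA quality ratios and summed marker intensities of the 6 arrays overlapped between the groups. GAPDH 3′ to 5′ ratios were 1.04 to 1.17 in high salt and 0.989 to 1.125 in exercise, and the beta-actin ratios were 1.215 to 1.615 in high salt and 1.015 to 1.388 in exercise. Correlations of log2 values between arrays were 0.956 to 0.963 within high salt, 0.966 to 0.975 within exercise and 0.958 to 0.966 between the groups. Pairs across groups were thus as similar as pairs within high salt. Summed intensities of endothelial markers were 1908 to 3000 in high salt and 2155 to 2659 in exercise, of smooth muscle markers 12682 to 15114 in high salt and 13759 to 14354 in exercise, and of red cell markers 14147 to 18812 in high salt and 16102 to 18581 in exercise. The skeletal muscle markers summed to 17649 to 26210 in high salt and 18990 to 26202 in exercise. Such a sum is set mostly by the brightest genes of its list, so these ranges say little about cell makeup. Sums of ventricular myocyte markers did not overlap, at 293389 to 380836 in high salt against 221729 to 284362 in exercise. Atrial myocyte markers, which include Nppa, summed to 22405 to 24783 in high salt and 13958 to 20475 in exercise, while the median of their 6 differences was 0.11.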

How the data were processed

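The authors deposited linear intensities of an Affymetrix rat array, a single value for each of 8799 probe sets in every sample. The sources used here do not give how probes were summarised. With 2% trimmed, column means were 500.767 to 501.021, so the deposited scale was kept. Groups come from the sample titles. At 6 weeks the title of the array numbered 1 carries a second number that the labels do not explain.

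The 59 control probe sets and the probe sets with a mean level below the 25th percentile were left out, and 6555 of 8740 were tested. Values were taken as log2(deposited intensity + 40). A model with 1 mean per group was fitted with limma 3.58.1 in R 4.3.3 to 17 arrays in 7 groups (10 residual degrees of freedom), with an intensity trend, and the contrast high salt minus exercise at 6 weeks was adjusted by Benjamini-Hochberg over all tested probe sets. The 3 controls of 6 weeks (GAPDH 3′ to 5′ ratios 1.58 to 3.99) and 4 columns deposited identically in pairs under different groups were left out. Groups left with a single array borrow the spread of the rest. The number of arrays limits the precision. The procedure was also run on simulated data with independent normal noise. Those data held no level-dependent shift and no outlying array, so the run cannot show how the calls behave under either.

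GEO's platform annotation gave 1 symbol for 7018 probe sets, several for 308 and none for 1473. A rule picked the called genes with no overlap, up to 4 per list with the smallest p, and the 5 smallest p in a direction with under 5 calls. It also took a fixed set of cardiac, clock and metabolic genes. Not every gene it picked is described. Hspa9, Col1a1, Tap1, Psmb8, RT1-Bb, Cxcl10, B2m, Bhlhe40, Bhlhe41, Tef and Hlf were added outside the rule. Lists hold each gene's brightest tested probe set and were given no test. The comparison, the 23 pathway lists and the 10 marker lists were chosen with earlier results of these data known. Promoter sequences for the 4 called genes, all matched by symbol, are RefSeq's (GRCr8), searched with Python 3.11.15. The 18 alternative settings covered scaling, pseudocount, filter, arrays fitted, weights, trend, RNA integrity, the replicate number and each array left out.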

Additional observations from a re-analysis of the deposited data

How the results depend on the processing

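Across 18 alternative settings the 6 called probe sets kept their direction. Many of the settings could not have turned it, because they left the difference unchanged or removed 1 array from groups that did not overlap. The number called higher ranged from 0 to 9. It was 3 with no filter on low values, 2 with only the 6 compared arrays, 1 with the controls of 6 weeks added, 2 with all 24 columns and 3 without the intensity trend, and the count called lower with all 24 columns was 1 (Pim3). It was 9 with probe sets above the median level only, 4 with quantile normalization or the GAPDH ratio as a covariate, 5 with array weights or a pseudocount of 16, and 6 with a pseudocount of 100. Leaving out 1 array gave 4 to 6 called higher and 0 to 7 called lower: 7 without exercise 1, 3 without high salt 1 and 1 without high salt 2. Nppb was called in 17 settings, the 3 Nppa probe sets in 15, 14 and 10, and Acta1 and Hspb1 in 4 each (highest adjusted p 0.2033 and 0.2666). With the replicate number of the titles as a block on the 6 arrays, 0 were called higher and 0 lower. In that setting 472 had an unadjusted p under 0.05, and Nppb had an adjusted p of 0.05819. Deviations of same-numbered arrays from their group means correlated at 0.036, -0.041 and -0.088 over the tested probe sets. The labels do not say what the numbers mean, and a pairing of the arrays was not tested further. Quantile normalization turned the sign of 66 of the 645 list genes, 0 of them called; Myh6 is one of these (-0.0344). Signs with 1 array left out were followed for selected probe sets, mostly the brightest of a gene. The dimmer ones of Atp2a2, Egr1 and Myh7 were not followed. Of those followed, the ones whose sign turned, none of them called, were Col1a1 (-0.0147 to 0.3481) and Pdk4 (-0.8238 to 0.1135) without high salt 1, Nr1d1 (-0.2445 to 0.1354) without high salt 3 (0.1354) or exercise 1 (0.0448), Bhlhe41 (-0.3825 to 0.0293) without high salt 2, Hlf (-0.5259 to 0.1327) without high salt 3 (0.1327) or exercise 3 (0.0433), and the dimmest Hspb1 probe set (-0.3014 to 0.0425) without exercise 2. Apart from the number of arrays or probe sets a setting itself removes, the cause was not tested.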
